A study of Homo sapiens with 4 samples.

Results

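The genes described here encode the actin cytoskeleton and its transcriptional control: actins, non-muscle myosin subunits, tropomyosins and calponins, filament crosslinkers, focal adhesion proteins, proteins that bind actin monomers, membrane linkers, formins, and the transcription factor SRF with its coactivators MRTFA and MRTFB. The genes were picked out of the table by a fixed list of names, with no threshold on their values. That list was chosen with earlier results of these data known. All 52 named genes were found among the 61806 genes of the count table, each in 1 row, and 50 passed the filter on low counts. MYH10, a non-muscle myosin heavy chain, and TMSB15A, a beta-thymosin, did not pass it.

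RNA was sequenced from U118-MG, an established human glioma line, in 4 libraries. The NC group (2 libraries) had been infected with a lentivirus carrying the negative control vector, and the SPNS2 group (2 libraries) with a pCDH-CMV-MCS-EF1-puro vector expressing SPNS2, a transporter that exports the lipid sphingosine 1-phosphate. The labels give the genotype as WT in both groups, and do not say whether the cells were clones or pools nor whether replicate libraries were grown apart. Every p-value therefore measures the spread among these 4 samples alone, and that spread may be technical.

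Actin filaments grow from monomers, which profilins and beta-thymosins hold in the cytoplasm, and are bundled by crosslinkers, pulled by myosin II and anchored at focal adhesions. MRTF coactivators bind actin monomers. When monomers are built into filaments, MRTFs are released, enter the nucleus and act with SRF on promoters that carry its binding site, the CArG box, many of which belong to cytoskeletal genes. Glioma cells use the actomyosin machinery to move through tissue.

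Levels are given in CPM, read counts per library scaled to a common total with TMM factors, and log2 fold changes (SPNS2 over NC) with the standard error (SE) of the fit. Genes count as called below an adjusted p of 0.05, by the quasi-likelihood test of edgeR over all 17853 tested genes.

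The libraries held 31353373 to 34125159 assigned reads each. SPNS2 had 42 and 47 reads in NC and 7381 and 8224 reads in SPNS2, and vector reads were counted together with endogenous ones. Mitochondrial transcripts took 3.95% to 4.06% of the counts in NC and 3.35% to 3.36% in SPNS2, and the part of this difference in the results below was not tested. The glioma markers VIM and CD44 were abundant (mean 4392 and 335 CPM in NC), whereas GFAP, S100B, AQP4, OLIG2 and SOX2 had at most 8 counts in any library. Of the 4 tested genes in this list of 10, VIM rose 1.49-fold (edgeR adjusted p = 0.021), the glial glutamate transporter SLC1A3 rose from 1.12 and 0.921 CPM to 20.2 and 17.8 CPM (adjusted p = 0.0016), NES, nestin, fell from 17.2 and 20.3 CPM to 10.1 and 10.9 CPM (adjusted p = 0.024) and CD44 was not called. The endothelial list summed to 5.27 to 8.57 CPM, with CLDN5 at 0 in every library, and the epithelial list to 2.68 to 4.14. The immune list summed to 112 to 131 in NC and 68.4 to 79 in SPNS2, nearly all of it from CD68, with PTPRC at 10 counts or fewer and TYROBP at 0.

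More of the cytoskeletal genes rose than fell in the SPNS2 cells. Of the 50 tested, 25 rose, 3 fell (FLNC, TLN2 and RDX) and 22 were not called. Among all tested genes, 12.1% were called higher and 11.3% lower, or 23.4% in either direction. Abundant genes were called more often: of those at 100 to 1000 CPM, 26.3% rose and 16.4% fell, and 15 of the 27 cytoskeletal genes in that range rose and 1 fell. Above 1000 CPM, 43.6% of 78 genes rose, and 4 of the 5 cytoskeletal genes did. The SPNS2 libraries both lay above NC for 32 of the 50 and both below for 7, against 32.4% and 33.6% of all tested genes (66% in either direction). The median log2 fold change was 0.44 over the 50 genes and -0.0085 over all tested genes. Without 1 library, the median log2 fold change ranged from 0.38 to 0.69 (contractile), 0.32 to 0.51 (crosslinking), 0.54 to 0.58 (focal adhesion) and 0.43 to 0.6 (monomer-binding). Calls in those fits are not set against those over all genes, because most of these genes are abundant.

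**Figure D1:**
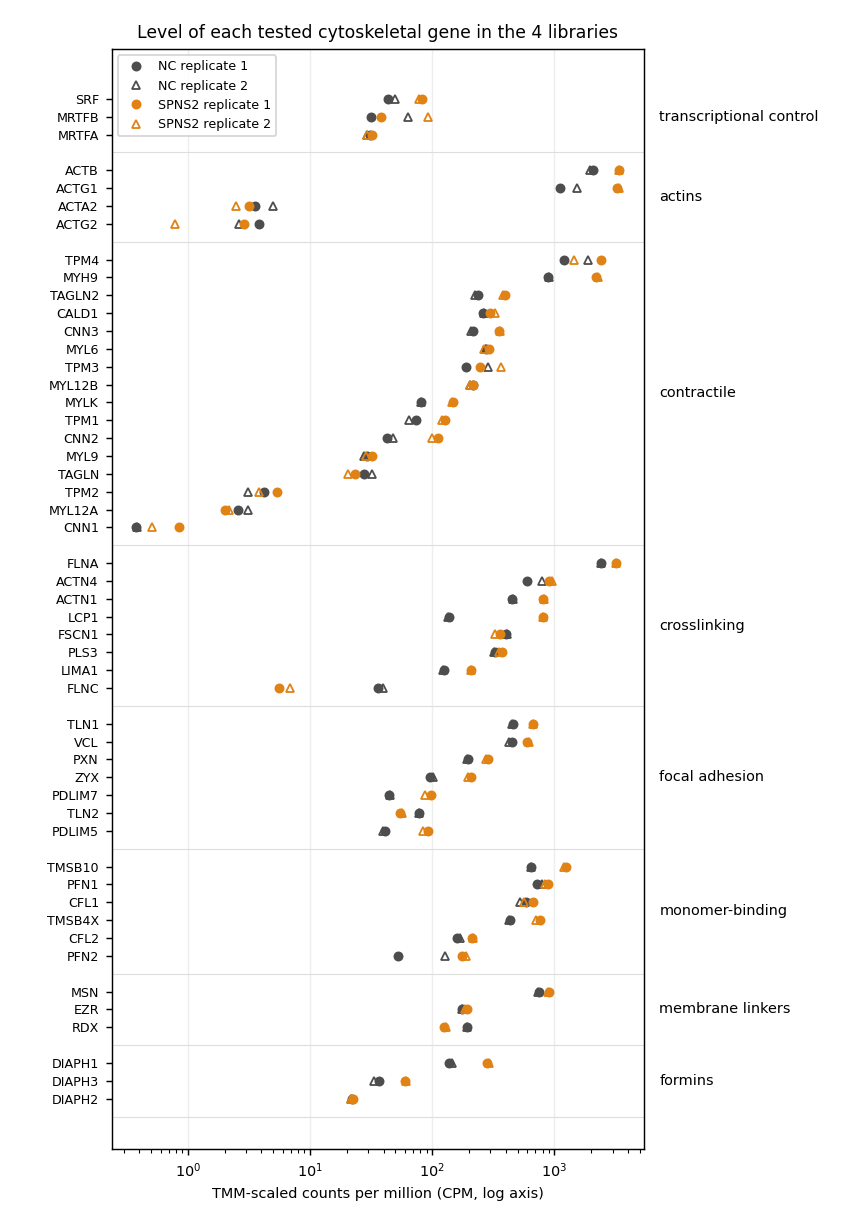
TMM-scaled CPM (log axis) of the 50 tested genes in each library, by role, ordered by mean level; grey marks are NC, orange marks SPNS2, filled circles replicate 1 and open triangles replicate 2. For LCP1 and FLNC the groups lie far apart, whereas for TPM4, TPM3 and MRTFB the libraries of a group lie apart from each other.

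The changes were mostly of moderate size. Those called higher rose from 1.2-fold (MSN) to 5.96-fold (LCP1), and 8 of them rose at least 2-fold: LCP1, ACTG1, MYH9, CNN2, PDLIM5, ZYX, PDLIM7 and DIAPH1. FLNC alone fell by at least that fold. Together the 52 genes took 1.71% and 1.85% of all counts in NC and 2.73% and 2.64% in SPNS2, so the groups did not overlap in this share.

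SRF itself (ENSG00000112658, chromosome 6, 43171299 to 43181507 on GRCh38), the DNA-binding partner of the MRTFs, rose. It was at 43.7 and 49.5 CPM in NC and 83.1 and 78.3 CPM in SPNS2 (log2 fold change 0.79, SE 0.094, adjusted p = 0.0099). The 2 SPNS2 values lay well above both NC values, and the call held in each of the 15 alternative analyses. MRTFA was at 31.2 and 29.4 CPM in NC and 32.4 and 29.4 CPM in SPNS2 (log2 fold change 0.03, SE 0.1, adjusted p = 0.87). MRTFB was at 31.4 and 63.6 CPM in NC and 37.7 and 92.4 CPM in SPNS2 (adjusted p = 0.6), so the second library of each group was at least 2.02 times the first and the groups overlapped. The transcript levels say nothing of where the MRTF proteins were in the cell.

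The promoters were searched for the CArG box on both strands (its palindromic form gives the same places on each), in RefSeq windows from 250 bases before to 50 bases after each annotated start on GRCh38.p14. Of the 52 genes, 47 had at least 1 window, and the table gave none for ACTB, FSCN1, MYL9, PFN2 and TAGLN. A box stood in a window of 8 of the 47 genes (17%) and of 438 of 27305 genes in all (1.6%), and in 8 of 78 windows (10.3%) against 1.29% of all windows. The gene set includes SRF and genes known as its targets, so a higher share than over all genes follows from how the genes were chosen. The boxes were in 6 of the 24 genes with a window that rose, in 2 of the 18 that were not called and in 0 of the 3 that fell. A window was missing for 4 of the 22 uncalled genes and for 1 of the 25 that rose, so the gaps fall unevenly on these groups. With 1 C or G allowed among the central letters, a match stood in 14 of the 47 genes (29.8%) and in 9.88% of all genes, and in the same share of the genes that rose (8 of 24, 33.3%) and of those not called (6 of 18, 33.3%). The exact boxes are shown with their surroundings because the motif is that of the regulator named for this gene set; capitals mark the box, and each sequence runs 5′ to 3′ on the gene's strand.
SRF: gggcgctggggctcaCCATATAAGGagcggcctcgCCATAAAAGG
ACTG1: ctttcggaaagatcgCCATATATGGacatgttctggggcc
CNN2: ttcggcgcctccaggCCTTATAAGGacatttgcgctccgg
MYLK: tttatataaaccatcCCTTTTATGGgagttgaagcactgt
FLNA: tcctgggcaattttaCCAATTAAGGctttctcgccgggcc
ACTN1: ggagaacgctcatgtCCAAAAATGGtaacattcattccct
TPM4: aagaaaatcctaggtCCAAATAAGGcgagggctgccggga
ACTG2: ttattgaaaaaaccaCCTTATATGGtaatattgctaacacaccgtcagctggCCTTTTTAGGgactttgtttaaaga

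The SRF stretch lies at chr6:43171224-43171268 on the plus strand and ends at the base before the RefSeq start. Its boxes begin 30 and 10 bases before that start. The gene span given above, from another annotation, begins further downstream, at 43171299. Those of ACTG1 (chr17:81512869-81512908), MYLK (chr3:123620618-123620657) and FLNA (chrX:154374704-154374743), all on the minus strand, each hold a box 94 bases before a start. The MYLK start lies inside the gene, which spans 123610049 to 123884331, and nearer its 3′ end than its 5′ end. By the annotated span, 81509971 to 81523847, the same holds for ACTG1. Whether the transcripts counted here begin at these starts was not tested. The box begins 89 bases before the start in the CNN2 stretch (chr19:1026504-1026543, plus strand), 171 in that of ACTN1 (chr14:68977713-68977752, minus strand) and 173 in that of TPM4 (chr19:16067350-16067389, plus strand). ACTG2, the smooth muscle gamma actin (chr2:73892883-73892959, plus strand), holds a pair. A match describes the sequence only, and windows of this size leave out sites further away or in introns.

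Both cytoplasmic actins rose, whereas the smooth muscle actins stayed at a few CPM. ACTB, beta actin, was at 2071 and 1955 CPM in NC and at 3379 and 3375 CPM in SPNS2, a 1.68-fold rise (log2 fold change 0.75, SE 0.042, adjusted p = 0.0022). ACTG1, gamma actin (ENSG00000184009, chromosome 17, 81509971 to 81523847), rose 2.51-fold, from 1112 and 1544 CPM to 3263 and 3401 CPM (log2 fold change 1.33, SE 0.17, adjusted p = 0.011). The NC libraries differed 1.39-fold at ACTG1, less than the gap between the groups, and leaving out single libraries gave log2 fold changes of 1.11 to 1.58. The coding sequences of the pair are very similar and the treatment of reads that match both is not given in the sources used here, so their sum is also given. It was 3183 and 3499 CPM in NC and 6642 and 6776 CPM in SPNS2, 2.01 times as high. Per kilobase of exons, ACTG1 was 38.7% and 48.1% of the pair in NC and 53.2% and 54.2% in SPNS2. ACTA2, smooth muscle alpha actin and a classic SRF target, was at 3.56 and 5.02 CPM in NC and 3.18 and 2.49 CPM in SPNS2 (adjusted p = 0.21). ACTG2 ranged from 0.779 to 3.81 CPM over the libraries (adjusted p = 0.42).

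The contractile group had 6 genes that rose and none that fell among 16 tested (10 not called; median log2 fold change 0.35). That median was 0.69 without NC replicate 2 and 0.6 without SPNS2 replicate 2. MYH9, the heavy chain of non-muscle myosin IIA (ENSG00000100345, chromosome 22, 36281277 to 36388067), changed most: 884 and 904 CPM in NC and 2209 and 2273 CPM in SPNS2 (log2 fold change 1.33, SE 0.04, adjusted p = 0.00093). The IIB heavy chain MYH10 had 8 reads in each NC library and 0 and 15 in the SPNS2 libraries, so MYH9 made up nearly all of the heavy chain reads of this pair in every library. None of the 4 myosin light chains was called. MYL6, the essential light chain, was at 274 and 276 CPM in NC and 292 and 267 CPM in SPNS2 (adjusted p = 0.84), and MYL12B, a regulatory light chain, at 214 and 205 CPM and at 216 and 203 CPM (adjusted p = 0.97). The regulatory light chains MYL9 (27.6 to 32.4 CPM) and MYL12A (2.01 to 3.09 CPM) were the others. MYL12A and MYL12B are near copies, and together they were at 217 and 208 CPM in NC and 218 and 205 CPM in SPNS2. MYLK, the gene of the kinase that activates myosin by phosphorylating these light chains, rose from 81 and 81.3 CPM to 148 and 147 CPM (1.82-fold, SE 0.057 on the log2 scale, adjusted p = 0.003). The count covers the whole gene, and which of its transcripts rose was not tested.

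Among the calponins and transgelins, CNN2, CNN3 and TAGLN2 rose, and CNN1 and TAGLN were not called. CNN2 rose 2.34-fold, from 42.6 and 48.1 CPM to 112 and 100 CPM (adjusted p = 0.0044), and CNN3 1.7-fold, from 214 and 206 CPM to 354 and 358 CPM (adjusted p = 0.0031). Both are the calponins of non-muscle cells, which bind and stabilise actin filaments. CNN1, the smooth muscle calponin, had 12 and 13 reads in NC and 26 and 17 in SPNS2 (log2 fold change 0.82, SE 0.51, adjusted p = 0.31). TAGLN2, the widely expressed transgelin, rose 1.69-fold from 235 and 223 CPM to 394 and 381 CPM (adjusted p = 0.0037). TAGLN, the smooth muscle transgelin SM22, was at 27.7 and 32.1 CPM in NC and at 23.4 and 20.6 CPM in SPNS2, a log2 fold change of -0.44 (SE 0.13, adjusted p = 0.084). DESeq2 called TAGLN lower (adjusted p = 0.0496), and its adjusted p ranged from 0.0496 to 0.84 over the 15 alternative analyses. TAGLN lies on 11q, and with the arm median removed its log2 fold change was -0.048. The smooth muscle and pericyte list summed to 538 to 591 CPM in NC and 568 to 615 CPM in SPNS2, mostly CSPG4, with 2 of 6 tested genes higher and 2 lower. NOTCH3 in that list, singled out after its values were seen, fell from 33.1 and 34 CPM to 2.5 and 2.64 CPM (adjusted p = 0.00093), while MYH11 had 2 to 34 reads and DES 4 to 70 reads per library. The part of these markers in the results was not tested. In bulk RNA, a change in the number of cells of a kind and a change in RNA per cell cannot be told apart.

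Among the tropomyosins, which wind along actin filaments and set which proteins can bind them, TPM1 was called. It rose 1.8-fold, from 74 and 64.3 CPM to 128 and 120 CPM (log2 fold change 0.84, SE 0.095, adjusted p = 0.0089). TPM4 was the most abundant of the family per kilobase of exons (178 CPM per kb in NC). Its levels were 1189 and 1890 CPM in NC and 2400 and 1435 CPM in SPNS2 (adjusted p = 0.55), so the spread within groups was as large as the difference between them. TPM3 was at 189 and 285 CPM in NC and 246 and 368 CPM in SPNS2 (adjusted p = 0.4), and TPM2 ranged from 3.09 to 5.33 CPM. CALD1, caldesmon, which also binds along the filament, was at 262 and 268 CPM in NC and 298 and 326 CPM in SPNS2 (log2 fold change 0.23, SE 0.066, adjusted p = 0.07).

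The crosslinkers held the highest and the lowest fold change of the gene set: 4 of 8 rose, 1 fell and 3 were not called (median 0.41). LCP1, L-plastin, an actin bundler best known from blood cells (ENSG00000136167, chromosome 13, 46125920 to 46211871), rose 5.96-fold, from 136 and 134 CPM to 813 and 801 CPM (log2 fold change 2.58, SE 0.048, adjusted p = 0.00049). Its paralog PLS3, T-plastin, was at 329 and 322 CPM in NC and 373 and 352 CPM in SPNS2 (adjusted p = 0.12). Per kilobase of exons, LCP1 stood at 26.7 CPM in NC against 79.4 for PLS3, and at 159 against 88.5 in SPNS2, so the order of the plastins was reversed between the groups. In the immune list, CD68 fell (adjusted p = 0.02), whereas CSF1R was at 0.187 and 0.565 CPM in NC and 1.88 and 1.92 CPM in SPNS2 (adjusted p = 0.055) and CD14 at 0.25 and 0 CPM in NC and 0.552 and 0.629 CPM in SPNS2 (adjusted p = 0.27). The part of immune markers in the LCP1 result was not tested.

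Filamins link filaments into networks and to the membrane, and the pair measured moved in opposite directions. FLNC, the filamin of muscle (ENSG00000128591, chromosome 7, 128830377 to 128859274), fell 6.11-fold, from 36 and 39.9 CPM to 5.59 and 6.83 CPM (log2 fold change -2.61, SE 0.15, adjusted p = 0.0025). FLNA, the widely expressed filamin, rose 1.32-fold, from 2414 and 2397 CPM to 3170 and 3178 CPM (adjusted p = 0.0039), and was at 227 CPM per kb in NC against 4.09 for FLNC. ACTN1, an alpha-actinin that crosslinks stress fibres, rose 1.8-fold from 446 and 457 CPM to 806 and 818 CPM (adjusted p = 0.002). The other alpha-actinin, ACTN4, was at 599 and 790 CPM in NC and 910 and 955 CPM in SPNS2. It was not called (log2 fold change 0.42, SE 0.14, adjusted p = 0.1), but was called by DESeq2 (adjusted p = 0.041) and without NC replicate 2 (adjusted p = 0.025). LIMA1, which bundles filaments and slows their turnover, rose 1.68-fold from 125 and 122 CPM to 208 and 207 CPM (adjusted p = 0.0035). FSCN1, fascin, the bundler of filopodia, was at 399 and 408 CPM in NC and 358 and 328 CPM in SPNS2 (log2 fold change -0.23, SE 0.064, adjusted p = 0.065). It was called lower with upper-quartile factors (adjusted p = 0.043), library totals (0.042) and arm medians removed (0.047).

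**Figure D2:**
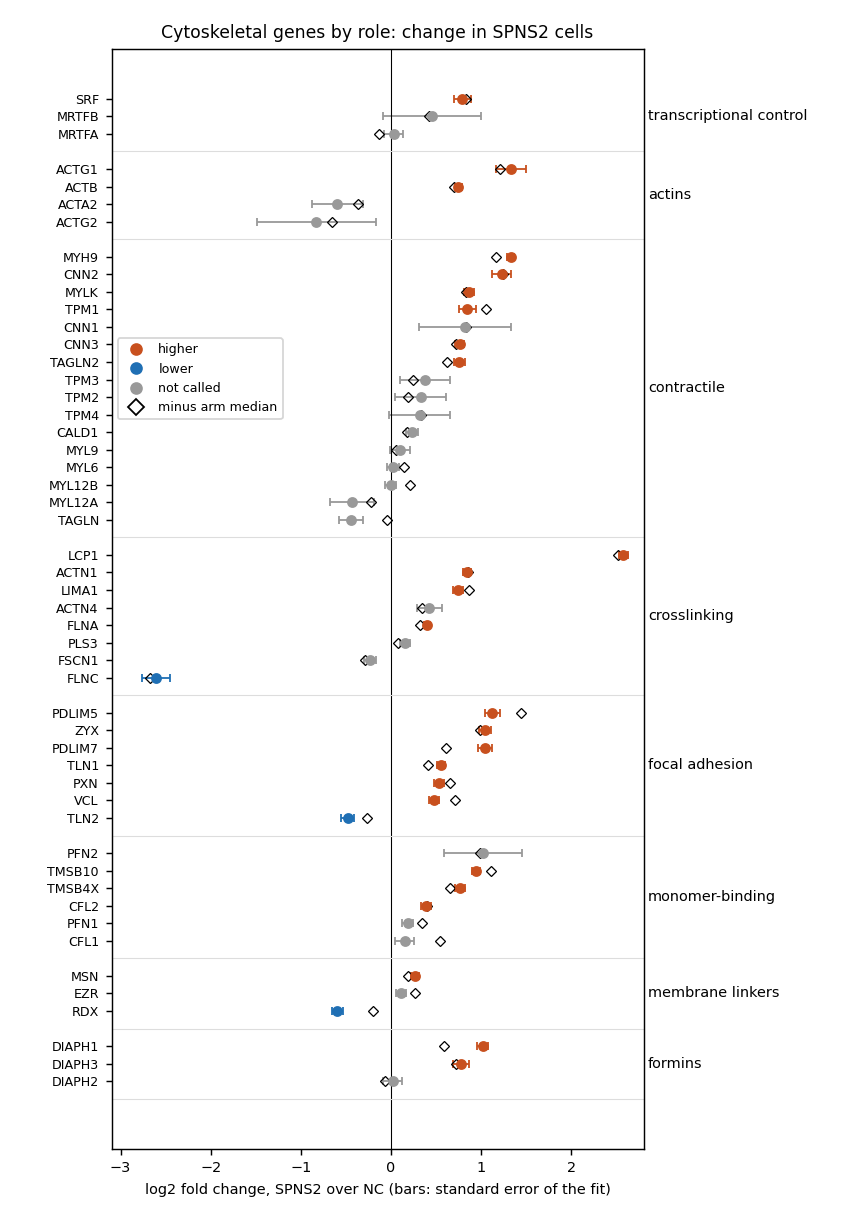
Log2 fold change (SPNS2 over NC) of each tested gene by role, with the SE of the edgeR fit as bars; colours mark genes called higher, lower or not called at an adjusted p under 0.05, and open diamonds the value after the median of the gene's chromosome arm was subtracted. Every focal adhesion gene except TLN2 lies above 0, LCP1 (2.58) and FLNC (-2.61) mark the ends of the range, and RDX moves from -0.59 to -0.2 with its arm subtracted.

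All 7 focal adhesion genes were called: 6 rose and 1 fell (median log2 fold change 0.55). Most of these genes encode the plaque that couples integrins to actin. The share called depends on which genes this list holds: TNS1, a focal adhesion protein counted in another list, fell. ZYX, zyxin, which moves to strained filaments, rose 2.06-fold from 95.3 and 101 CPM to 209 and 197 CPM (adjusted p = 0.0029). PDLIM5 and PDLIM7 are scaffold proteins that bind alpha-actinin or tropomyosin at stress fibres. PDLIM5 rose 2.18-fold from 41.5 and 39.3 CPM to 92.3 and 83.6 CPM (adjusted p = 0.0039), and PDLIM7 2.06-fold from 44.4 and 45.5 CPM to 97.2 and 87.9 CPM (adjusted p = 0.004). The linkers of integrins to actin rose less. TLN1, talin 1, which activates integrins, rose 1.47-fold from 458 and 453 CPM to 664 and 671 CPM (adjusted p = 0.0041). VCL, vinculin, which strengthens the link of talin to actin, rose 1.39-fold from 450 and 424 CPM to 595 and 623 CPM (adjusted p = 0.0099). PXN, the adaptor paxillin, rose 1.45-fold from 196 and 192 CPM to 286 and 276 CPM (adjusted p = 0.0069). In each of these the lower SPNS2 library stood above the higher NC library.

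TLN2, the second talin, fell 1.4-fold from 77.3 and 78.2 CPM to 54.3 and 57 CPM (log2 fold change -0.48, SE 0.068, adjusted p = 0.0145). Per kilobase of exons it was at 4.8 CPM in NC against 45.2 for TLN1. The call of TLN2 was lost with the median of arm 15q removed (adjusted p = 0.062) and in each of the 4 analyses without a library (adjusted p = 0.067 and 0.069 when replicate 1 or 2 of NC was left out, 0.07 and 0.054 when replicate 1 or 2 of SPNS2 was).

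Among the genes for monomer binding and turnover, 3 of 6 tested rose and the other 3 were not called (median log2 fold change 0.58). The beta-thymosins, which hold actin monomers in reserve, rose together. TMSB10 rose 1.92-fold, from 640 and 644 CPM to 1257 and 1208 CPM (log2 fold change 0.94, SE 0.044, adjusted p = 0.0015), and TMSB4X 1.7-fold, from 433 and 427 CPM to 760 and 704 CPM (adjusted p = 0.0036). TMSB15A had no reads in any library. TMSB10 had the highest level per kilobase of the whole gene set in both groups (1294 and 2485 CPM per kb). TMSB4X has processed copies in the genome, and the rows named as its pseudogenes held 10.5 and 10.9 CPM in NC and 21.6 and 17.7 CPM in SPNS2. The profilins, which feed monomers to growing ends, were not called: PFN1 was at 727 and 796 CPM in NC and 884 and 844 CPM in SPNS2 (log2 fold change 0.18, SE 0.063, adjusted p = 0.11). PFN2 was at 52.3 and 128 CPM in NC and 175 and 190 CPM in SPNS2 (log2 fold change 1.02, SE 0.43, adjusted p = 0.17). The size of the PFN2 change depended on single libraries. Its log2 fold change ranged from 0.51 to 1.8 when 1 library was left out, and was 1.8 without NC replicate 2.

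Cofilins sever filaments and return monomers to the pool. CFL1, the main form, was at 586 and 521 CPM in NC and 664 and 567 CPM in SPNS2, overlapping ranges (log2 fold change 0.15, SE 0.1, adjusted p = 0.36). CFL2 rose 1.31-fold, from 160 and 167 CPM to 212 and 217 CPM (adjusted p = 0.016). That call was lost without NC replicate 1 (adjusted p = 0.081), NC replicate 2 (0.063), SPNS2 replicate 1 (0.052) or SPNS2 replicate 2 (0.067). CFL1 lies on 11q and PFN1 on 17p, arms whose tested genes had medians of -0.39 and -0.15, and with arm medians removed both were called higher (adjusted p = 0.034 and 0.032).

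The ERM proteins tie the actin cortex to the membrane, and their 3 genes gave 1 call in each direction. MSN, moesin, the most abundant, rose 1.2-fold from 752 and 737 CPM to 901 and 892 CPM (log2 fold change 0.27, SE 0.041, adjusted p = 0.018). Its call did not hold when NC replicate 1 (adjusted p = 0.071) or NC replicate 2 (adjusted p = 0.087) was left out. EZR, ezrin, was at 175 and 176 CPM in NC and 192 and 187 CPM in SPNS2 (adjusted p = 0.23). RDX, radixin (chromosome 11, 109864295 to 110296722), fell 1.51-fold from 193 and 191 CPM to 125 and 129 CPM (log2 fold change -0.59, SE 0.056, adjusted p = 0.0059). The 630 tested genes of 11q had a median of -0.39. With arm medians removed, RDX was at -0.2 (adjusted p = 0.078) and no longer called, whereas EZR was called higher at 0.26 (adjusted p = 0.04).

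Diaphanous formins nucleate unbranched filaments, and 2 of the 3 rose. DIAPH1 rose 2.02-fold, from 137 and 145 CPM to 279 and 290 CPM (log2 fold change 1.02, SE 0.062, adjusted p = 0.0027). It lies on 5q, where the median of 701 tested genes was 0.43, and with that median removed it was still called at a log2 fold change of 0.58. DIAPH3 rose 1.71-fold from 36.4 and 33.6 CPM to 59.4 and 60.6 CPM (adjusted p = 0.0082). DIAPH2 was at 21.9 and 21.5 CPM in NC and 22.5 and 21.5 CPM in SPNS2 (log2 fold change 0.02, SE 0.1, adjusted p = 0.92).

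Most calls were kept when the median of the chromosome arm was subtracted. The 28 called genes lie on 21 chromosome arms, and 10 of the 25 that rose lie on arms with a median below 0. With arm medians removed, 28 genes were called higher and 2 lower (FLNC and FSCN1), 26 of them among the 28 called before. PDLIM7, on 5q like DIAPH1, stayed called at 0.61.

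Most of the genes were measured with a narrow spread between replicates. Of the 45 that averaged 10 CPM or more, 6 differed more than 1.25-fold between the libraries of at least 1 group: MRTFB, TPM3, TPM4, PFN2, ACTG1 and ACTN4 (13.3%, against 23.5% of 10031 tested genes at that level). They were singled out after their values were seen. ACTG1 alone of these was called. The direction of the spread differed: replicate 2 was higher than replicate 1 in both groups for MRTFB and TPM3, but for TPM4 it was higher in NC and lower in SPNS2.

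**Figure D3:**
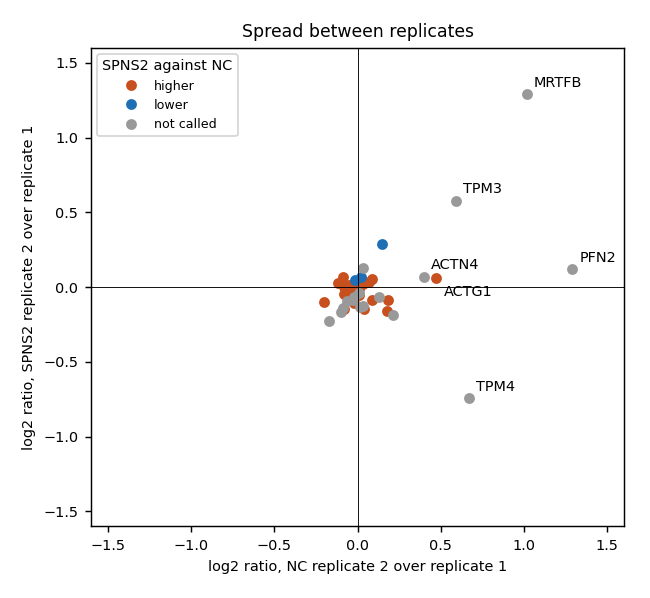
Log2 ratio of replicate 2 to replicate 1 in NC (horizontal axis) and in SPNS2 (vertical axis) for the 45 genes averaging 10 CPM or more, coloured by their call between the groups. Most points lie near 0 on both axes, and the 6 labelled genes differ more than 1.25-fold in at least 1 group.

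Lists of other genes of the pathway were read from the same fit, 112 genes in all, of which 108 were tested. There 24 rose (22.2%) and 16 fell (14.8%); the median was 0.09 on the log2 scale. These counts depended on single libraries: leaving out replicate 1 or 2 of NC gave 12 higher and 8 lower or 11 and 13, and leaving out replicate 1 or 2 of SPNS2 gave 15 and 12 or 16 and 14.

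Other MRTF-SRF target genes had the highest share called higher, 10 of 28 (35.7%) against 3 lower (10.7%), with a median of 0.27. FBXO32, a ubiquitin ligase subunit, rose 4.51-fold from 38.1 ± 4.29 to 172 ± 0.212 CPM (SD, n = 2; adjusted p = 0.0015), MYO1E, an unconventional myosin, 2.49-fold from 46.2 ± 1.37 to 115 ± 2.59 CPM (adjusted p = 0.0019) and AMOTL2, an angiomotin, 1.98-fold from 51.5 ± 1.4 to 102 ± 2.1 CPM (adjusted p = 0.003). TNS1, tensin 1, a focal adhesion protein, went the other way and fell 2.77-fold from 95.6 ± 1.18 to 34.5 ± 1.67 CPM (adjusted p = 0.0019). Among 13 genes of the other SRF branch, 2 rose (15.4%) and 1 fell (7.69%), with a median of -0.19. That list holds immediate early genes together with the ternary complex factors that act on them with SRF. EGR1, a zinc finger transcription factor, rose 3.54-fold from 20.2 ± 2.54 to 71.5 ± 9.05 CPM (adjusted p = 0.0043) and ELK1, a ternary complex factor, 1.23-fold (adjusted p = 0.039), while DUSP1, a MAP kinase phosphatase, fell 1.31-fold (adjusted p = 0.037).

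In the list of branched nucleation by the ARP2/3 complex, 4 of 21 rose and 3 fell (median 0.14). ARPC1A, a subunit of the complex, rose 1.41-fold (adjusted p = 0.013) and WIPF1, a partner of WASP proteins, 2.14-fold (adjusted p = 0.025). CYFIP2, a WAVE complex subunit, fell 3.19-fold from 22.6 ± 2.45 to 7.07 ± 0.248 CPM (adjusted p = 0.0048), and CTTN, cortactin, which stabilises branches, fell 1.46-fold (adjusted p = 0.0059) and lies on 11q.

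In the list of capping, severing and monomer recycling, 6 of 21 rose and 6 fell (median 0.16). TMOD1, a tropomodulin that caps the slow-growing end, fell 6.8-fold from 27.8 ± 1.62 to 4.09 ± 0.74 CPM (adjusted p = 0.0029). CORO2B, a coronin, fell 1.72-fold (adjusted p = 0.004), and SCIN, a severing protein, was at 3.78 ± 1.44 CPM in NC with 2 reads in each SPNS2 library (adjusted p = 0.0052). CAP1, which recycles monomers with cofilin, rose 1.48-fold from 491 ± 15.9 to 724 ± 26 CPM (adjusted p = 0.0061).

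**Figure D4:**
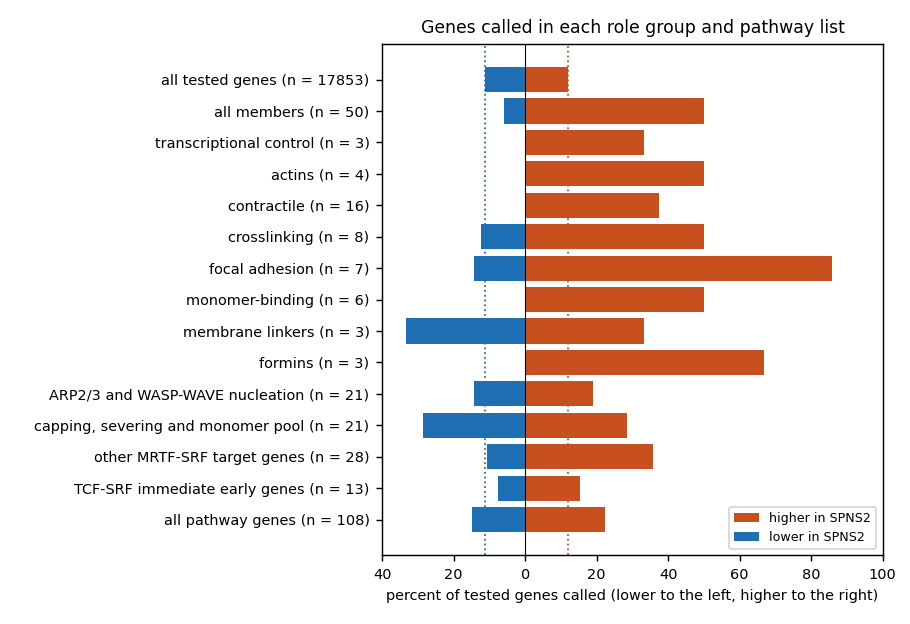
Percent of tested genes called higher (to the right) and lower (to the left) in SPNS2 in the role groups and the pathway lists described, with the number tested; dotted lines mark the shares over all tested genes, 12.1% higher and 11.3% lower. The focal adhesion group has the longest bar to the right, 6 of 7 genes.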

How the data were processed

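The authors deposited raw counts per Ensembl gene, 1 column per library, as whole numbers without normalization. The submitters' processing notes name Trim Galore 0.6.9, HISAT2 2.2.1, featureCounts 0.3 and hg38, without their order or settings. Not given in the sources used here are the handling of reads matching several places, strandedness in counting and the release of the annotation. Reads of near copies and of overlapping or antisense genes are therefore uncertain. A row (1 in all) that held no counts was left out.

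Genes passing filterByExpr (minimum count 10, minimum total 15) were scaled by TMM. The group effect was tested two-sided with edgeR 4.0.16 (quasi-likelihood) under R 4.3.3, with no other term, and p-values were adjusted after Benjamini-Hochberg over all tested genes. The SE is the log2 fold change divided by the square root of F. Positions and exon lengths came from GENCODE 29 (17382 tested genes matched) and promoter windows from RefSeq (GRCh38.p14). Chromosome arms were divided at approximate centromere positions.

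The members and lists were chosen with earlier results of these data known. Values by library are given for each called member, SRF, MRTFA, MRTFB and the most abundant member of each role group, with the adjusted p of up to 3 uncalled members a group, most abundant first. In pathway lists, up to 4 called genes with the smallest p are named. Some items, among them 1 pathway list that is part of the pathway totals, are not reported here. Other genes named were chosen after their values were seen. Counts were simulated for SPNS2 against NC (17020 genes, 50 changed at each fold). A change of 1.3-fold was called in 2%, one of 1.5-fold in 12%, one of 2-fold in 82% and one of 4-fold in 100%. Of 103 calls, 5 were false. Far fewer genes were changed there than the 4171 called in the data, which makes the adjusted p stricter. These rates therefore do not give the power of the real comparison. The alternatives tried were DESeq2 1.42.0, limma-voom (limma 3.58.1), robust fitting, factors by RLE or upper quartile, plain library totals, other low-count filters, the replicate block, leaving out each library, removing arm medians and adding pseudogene rows.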

Additional observations from a re-analysis of the deposited data

How the results depend on the processing

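Of the 28 called genes, 24 kept their call in all 15 alternatives; CFL2, MSN, TLN2 and RDX did not. The number called stayed between 25 and 30. Over all genes, the count fell to 1712 to 2144 without a library (950 to 1093 higher, 762 to 1051 lower); fewer samples were then fitted.
The replicate block, for numbers that the labels share but do not pair (correlation of deviations -0.078), called 1976 genes (1039 higher, 937 lower) and 27 of the gene set, with CFL2 (adjusted p = 0.053) and MSN (0.054) lost and TPM3 gained (0.049); of the other pathway genes it called 14 higher and 10 lower.
Without a library, those pathway genes gave 11 to 16 higher and 8 to 14 lower, and the medians ranged from 0.072 to 0.88 (transcriptional control), -0.0029 to 0.29 (actins), 0.38 to 0.69 (contractile), 0.54 to 0.58 (focal adhesion) and 0.43 to 0.601 (monomer-binding).
With upper-quartile factors the focal adhesion median was 0.51, that of membrane linkers 0.062 and the log2 ratio of the summed beta-thymosins 0.83; with library totals they were 0.495, 0.052 and 0.82. With arm medians removed, the medians were 0.66 (focal adhesion), 0.18 (membrane linkers) and 0.58 (formins). The cause was not tested.
Some uncalled genes changed sign and stayed uncalled. With upper-quartile factors, MRTFA was at -0.018, MYL6 at -0.024 and DIAPH2 at -0.029, and with library totals at -0.027, -0.034 and -0.039. With arm medians removed, MRTFA was at -0.13, MYL12B at 0.21 and DIAPH2 at -0.065. Leaving out a library gave ranges of -0.027 to 0.101 (MRTFA; below 0 without NC replicate 2 or SPNS2 replicate 1), -0.33 (without SPNS2 replicate 2) to 1.05 (MRTFB), -0.028 (without SPNS2 replicate 1) to 0.089 (MYL6), -0.038 to 0.043 (MYL12B; above 0 without NC replicate 1 or SPNS2 replicate 2) and -0.085 (without SPNS2 replicate 1) to 0.69 (TPM4).
Allowing 1 C or G in the CArG box's central letters raised the share of genes with a match from 17% to 29.8%, and that over all genes from 1.6% to 9.88%. Changes of 1.3-fold and 1.5-fold were rarely called in the simulation, which changed far fewer genes than were called in the data. In the data, changes under 1.5-fold were called, such as FLNA at 1.32-fold and TLN1 at 1.47-fold. The simulated rates therefore do not carry over. Depth and 2 libraries a group still limit what can be said of uncalled genes.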
